A study of Mus musculus with 28 samples.

Results

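The genes described here are 10 markers of T cells and of cytotoxic lymphocytes, chosen by name: Cd3d, Cd3e and Cd3g, the coreceptor genes Cd4, Cd8a and Cd8b1, and the cytotoxic genes Gzma, Gzmb, Prf1 and Nkg7. All 10 are among the 35858 gene symbols of the liver and pancreas files (set 2) and among the rows of the TPM table of liver and lung (set 1). A3B mice carried human APOBEC3B fused to turboGFP under a tetO sequence in the ColA1 locus together with CAGs-rtTA3. The latter drives the transactivator in most tissues, so that the enzyme was not limited to a single cell type. The 4-week-old animals on doxycycline received it in food at 625 ppm, and controls carried a single transgene. By label this was CAGs for control lung 87 and A3B for the other controls, apart from label conflicts given below.

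Set 2 holds livers of 6 A3B mice (44, 48, 49, 125, 137 and 153) and 2 controls (45 and 168), and pancreases of 6 A3B mice (44, 49, 53, 125, 137 and 153) and the same 2 controls, for all of which the labels give 10 days on doxycycline. For controls 45 and 168 the mouse table of the study also gives 10 days and its methods have control littermates on the same food, whereas one legend of the study describes a pair of control animals as without doxycycline. Set 1 holds livers of 3 A3B mice (23 and 28 at 14 days, 70 at 10 days) and 3 controls (11, 91 and 92), and lungs of 3 A3B mice (69, 70 and 74 at 10 days) and 3 controls (87, 88 and 91), with 15 days in the labels of the controls. The same table gives the controls of set 1 no doxycycline, apart from lung 87. Groups follow the sample titles, although the genotype label of A3B pancreases 44 and 137 is the single-transgenic one and that of control pancreases 45 and 168 and of control liver 11 is the double-transgenic one. One mouse stands behind each library, and A3B mice 44, 49, 125, 137 and 153 and both controls gave liver and pancreas to set 2.

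CD3 chains pair with the T cell receptor at the surface and carry its signal into the cell. CD4 and CD8 are the coreceptors that bind MHC class II and class I molecules, and they separate helper from cytotoxic T cells. Cytotoxic T cells and natural killer cells store perforin (Prf1) and granzymes (Gzma, Gzmb) in granules and release them onto a target cell, where perforin opens the way for the granzymes. Nkg7 encodes a membrane protein of these granules. In many resting lymphocytes the granzyme B and perforin proteins are scarce, and activation raises them, whereas RNA was measured here. In bulk tissue, a change in the number of cells of a type and a change of RNA per cell cannot be told apart.

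Total estimated counts in set 2 ranged from 65161064 to 118976013 per library. Defining transcripts of the labelled tissue were high in every library, with the sum of 6 hepatocyte genes at 5670 TPM or more in livers and the sum of 6 lung epithelium genes at 18271 TPM or more in lungs. Acinar transcripts filled the control pancreases (395920 and 386719 TPM summed over 10 acinar genes, against 70225 to 186381 in A3B pancreases), and the TMM factors of edgeR, which scale libraries for such composition, were 0.210 and 0.443 in controls 45 and 168 and 1.30 to 1.79 in A3B pancreases. With counts scaled by their totals, the pancreas had a median of 2.29 over the log2 fold changes of all tested genes in place of 0.09, and the liver 0.67 in place of 0.21. Fold changes are therefore given on the TMM scale, and TPM values of the pancreas should be read against that shift. The 2 control pancreases also stood apart from each other: the pan-leukocyte gene Ptprc (CD45) was at 0.109 TPM in control 45 and 10.4 TPM in control 168, against 8.64 to 34.1 TPM in A3B pancreases. Lymph node stroma transcripts were not even either, with Glycam1, of high endothelial venules, at 117 TPM in A3B pancreas 49, 5.57 TPM in control 168 and at most 2.46 TPM in the other pancreases. In set 1 the human transgene was at 705 to 1705 TPM in A3B livers, 90.6 to 281 TPM in A3B lungs and at most 0.526 TPM in controls.

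In the pancreas, Gzmb was the member that passed the test of A3B against control mice, and it was higher in A3B mice. Prf1 and Gzma also stood above both controls on the TPM scale in all 6 A3B pancreases, as did 70.8% of all genes tested, and Gzma did not after TMM scaling, whereas CD3 and CD8 genes of control 168 lay above those of 5 of the 6 A3B pancreases on TPM and of all 6 after TMM scaling. All 10 members passed the filter on low counts. By edgeR's quasi-likelihood test with Benjamini-Hochberg adjustment, 1 of the 10 was higher and 0 were lower, where 17.0% of the 19123 genes tested were higher and 14.9% were lower. At an unadjusted p under 0.05, 2 members passed, Gzmb and Prf1, where 8312 of the 19123 genes tested did. The median log2 fold change of the members was -0.32, against 0.09 for all genes tested.

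Among the CD3 genes, Cd3d (ENSMUSG00000032094.8, chromosome 9 of GRCm38, 44981786 to 44987339) was at 0.931, 2.29 and 16.4 TPM (lowest, median and highest of 6) in A3B pancreases, at 0.113 TPM in control 45 and at 10.8 TPM in control 168. Cd3e (ENSMUSG00000032093.7, 44998740 to 45009627 on the same chromosome) was at 0.825, 1.78 and 12.7 TPM in A3B pancreases and at 0.0549 and 4.12 TPM in controls 45 and 168. Cd3g (ENSMUSG00000002033.14, 44969572 to 44980431) was at 0.858, 1.97 and 17.1 TPM, and at 0.119 and 5.33 TPM in the controls. On the TPM scale A3B pancreas 49 was the highest library in each case, control 168 the second highest and control 45 the lowest. After TMM scaling control 168 was the highest library for all 3 genes, with 30.9 CPM of Cd3d against 11.3 CPM in pancreas 49, 7.61 against 6.49 CPM of Cd3e and 9.74 against 7.53 CPM of Cd3g. On that scale pancreas 125 lay just under control 45 for Cd3e (0.370 against 0.383 CPM) and Cd3g (0.513 against 0.548 CPM). The log2 fold changes were -2.15 for Cd3d (standard error 1.14, adjusted p = 0.187 by edgeR), -1.15 for Cd3e (1.13, adjusted p = 0.467) and -1.28 for Cd3g (1.09, adjusted p = 0.398). The estimated counts behind control 45 were 14, 7 and 10. An antisense gene overlaps Cd3e, and the counting is not stated to have used strand.

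Cd8a (ENSMUSG00000053977.13, chromosome 6, 71373427 to 71379173), the alpha chain, was at 0.356, 0.818 and 6.35 TPM in A3B pancreases and at 0.0376 and 2.20 TPM in controls 45 and 168. Cd8b1 (ENSMUSG00000053044.8, chromosome 6, 71322788 to 71337494), the beta chain found on conventional cytotoxic T cells, was at 0.282, 0.897 and 7.12 TPM and at 0.00909 and 1.78 TPM, with 1 estimated count behind control 45. Again pancreas 49 and control 168 were the highest libraries on both scales. Cd4 (ENSMUSG00000023274.14, chromosome 6, 124864692 to 124888221) was at 1.79, 3.44 and 13.7 TPM in A3B pancreases and at 0.0159 and 1.99 TPM in the controls. On the TPM scale 5 of the 6 A3B libraries lay above control 168 for Cd4, but after TMM scaling 1 did, pancreas 49 at 15.9 CPM against 10.2 CPM in control 168 and 2.98 to 7.60 CPM in the other A3B libraries. The log2 fold changes were -1.26 for Cd8a (standard error 1.08), -0.84 for Cd8b1 (1.24) and 0.39 for Cd4 (1.05), with adjusted p of 0.399, 0.637 and 0.801 by edgeR.

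Gzmb (ENSMUSG00000015437.5, chromosome 14, 56258838 to 56262260), the granzyme that cleaves caspases, was at 1.62, 2.99 and 5.50 TPM in A3B pancreases, at 0.0460 TPM in control 45 and at 0.266 TPM in control 168. The 6 A3B libraries held between 158 and 522 estimated counts of Gzmb, against 5 and 29 in the controls. After TMM scaling they stood at 1.34 to 4.88 CPM (counts relative to the scaled library size) and the controls at 0.274 and 0.688 CPM, so the groups did not overlap on either scale. The log2 fold change was 2.36 (standard error 0.68, adjusted p = 0.0230 by edgeR), or 2.26 above the median of all genes, and it was 2.09 above that median with total-count scaling. Without control 45 it was 1.90 (adjusted p = 0.126), without control 168 it was 3.22 (adjusted p = 0.0306), and without A3B pancreases 44 and 137, whose genotype labels conflict with their titles, it was 2.09 (adjusted p = 0.0560).

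Prf1 (ENSMUSG00000037202.6, chromosome 10, 61297833 to 61304680) was at 0.622, 1.05 and 2.12 TPM in A3B pancreases and at 0.0195 and 0.177 TPM in controls 45 and 168. Its groups were also apart after TMM scaling, at 0.943 to 2.31 CPM against 0.164 and 0.830 CPM, and its log2 fold change was 1.62 (standard error 0.65, unadjusted p = 0.0308, adjusted p = 0.0806 by edgeR). DESeq2 placed Prf1 past the threshold (log2 fold change 1.53, adjusted p = 0.0336). Gzma (ENSMUSG00000023132.8, chromosome 13, 113093825 to 113100981), a tryptase of cytotoxic granules and the most abundant member in 5 of the 6 A3B pancreases, was at 12.01, 20.5 and 40.0 TPM there and at 0.441 and 6.34 TPM in the controls. After TMM scaling control 168 (9.20 CPM) lay inside the A3B range of 5.38 to 17.3 CPM, and the log2 fold change was 0.89 (standard error 0.69, adjusted p = 0.351 by edgeR). Nkg7 (ENSMUSG00000004612.9, chromosome 7, 43437073 to 43438249) was at 3.62, 6.54 and 18.6 TPM against 0.111 and 4.54 TPM, and its log2 fold change of 0.19 did not pass (standard error 0.83, adjusted p = 0.876). After TMM scaling Gzmb and Prf1 were the members above both controls in all A3B pancreases, as were 25.1% of all genes tested.

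**Figure D1:**
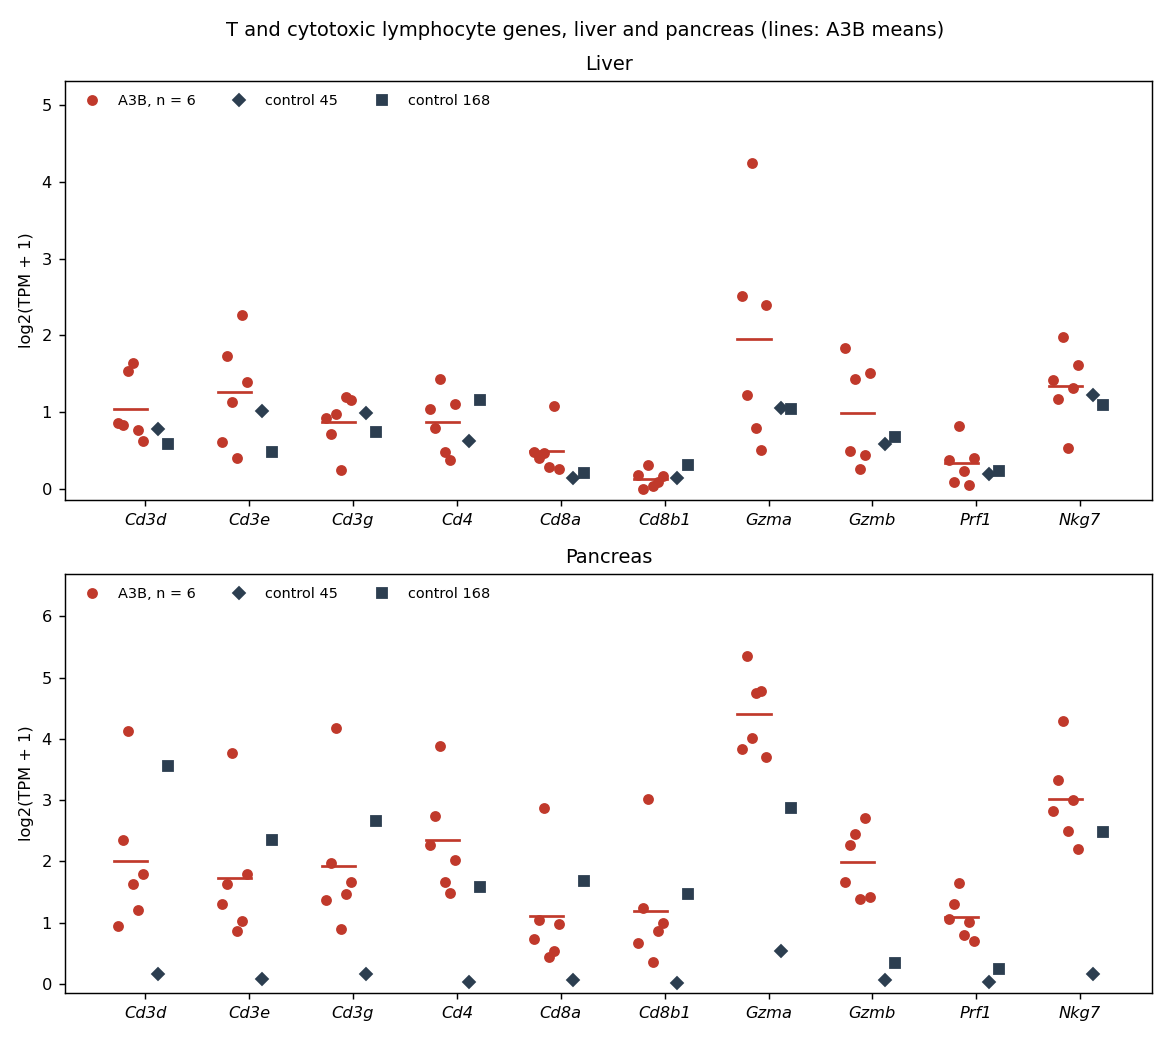
Level of each gene in each library of set 2, as log2(TPM + 1), in liver (top) and pancreas (bottom). Red circles are A3B libraries with their mean as a line, and dark symbols are controls 45 and 168. In the pancreas control 45 is the lowest library for every gene, and Gzma, Gzmb and Prf1 are the genes for which all 6 A3B libraries lie above control 168.

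Upstream sequence of the cytotoxic genes is shown because Gzmb and Prf1 were the members with an unadjusted p under 0.05 in the pancreas, with Cd3g beside them as a T cell receptor gene that did not pass. Each run holds the 250 bases before the RefSeq start of the gene (GRCm38.p6), read 5′ to 3′ on the strand of the gene. Capitals mark matches on either strand to TGTGGT (the core bound by RUNX factors), AGGAAG (ETS factors), TGACGT (the CRE core), TGANTCA (AP-1) or the interferon-stimulated response element, and no matches overlap in these 4 sequences. The positions are chr14:56262335-56262584 (minus strand) for Gzmb, chr13:113100982-113101231 (minus) for Gzma, chr10:61297586-61297835 (plus) for Prf1 and chr9:44980432-44980681 (minus) for Cd3g.
Gzmb: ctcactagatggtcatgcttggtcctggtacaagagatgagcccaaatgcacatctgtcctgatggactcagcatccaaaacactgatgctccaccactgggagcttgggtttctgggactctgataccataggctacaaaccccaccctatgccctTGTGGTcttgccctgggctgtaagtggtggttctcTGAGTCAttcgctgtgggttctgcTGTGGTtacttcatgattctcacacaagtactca
Gzma: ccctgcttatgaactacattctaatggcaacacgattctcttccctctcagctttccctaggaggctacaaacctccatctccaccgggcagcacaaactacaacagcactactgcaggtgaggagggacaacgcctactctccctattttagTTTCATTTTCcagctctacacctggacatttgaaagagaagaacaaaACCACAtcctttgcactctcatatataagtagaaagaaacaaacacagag
Prf1: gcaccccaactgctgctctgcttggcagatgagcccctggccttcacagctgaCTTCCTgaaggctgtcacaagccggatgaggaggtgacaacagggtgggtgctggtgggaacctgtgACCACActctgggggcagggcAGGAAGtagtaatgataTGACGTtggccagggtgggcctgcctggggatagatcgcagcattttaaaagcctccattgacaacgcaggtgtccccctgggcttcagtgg
Cd3g: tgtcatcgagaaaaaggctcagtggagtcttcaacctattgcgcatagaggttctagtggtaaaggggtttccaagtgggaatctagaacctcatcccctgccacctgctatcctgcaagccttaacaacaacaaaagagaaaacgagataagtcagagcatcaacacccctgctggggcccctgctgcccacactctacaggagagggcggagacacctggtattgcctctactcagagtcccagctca
Gzmb held 2 RUNX cores and 1 AP-1 match, Gzma 1 RUNX core and 1 interferon element, and Prf1 1 RUNX core, 2 ETS cores and 1 CRE core. No match to these letters lay in the Cd3g window, whereas that of Cd3e held 2 ETS cores and 1 CRE core, as many as Prf1, and that of Cd3d 1 ETS core. Sequence was at hand for 8 of the 10 members, without Cd4 and Cd8b1. The RUNX core was in the windows of Gzma, Gzmb, Prf1 and Nkg7 and not in those of Cd3d, Cd3e, Cd3g and Cd8a. Of all 32851 promoters of the same length 14.0% held it, and 29.5% held the ETS core, 6.47% the CRE core, 6.75% the AP-1 letters and 2.98% the interferon element.

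In the pancreas the direction of the CD3 genes, Cd4, CD8 genes and Nkg7 depended on which control was used. With control 168 left out, so that control 45 with 1 to 27 counts per member was the sole control, 5 of 10 members were higher (Cd4, Gzma, Gzmb, Prf1 and Nkg7), where 15.5% of all genes tested were. With control 45 left out, 0 of 10 were higher, where 10.2% of genes were, and the log2 fold changes ran from -3.09 for Cd3d to 1.90 for Gzmb. Both fits assume that the lone control varies like the A3B libraries. Gzmb and Prf1 were above the median of all genes in both fits. Gzma was 0.03 below that median without control 45 and 2.46 above it without control 168. With total-count scaling 3 of 10 members were higher (Gzma, Gzmb and Prf1), where 70.5% of all genes tested were.

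**Figure D2:**
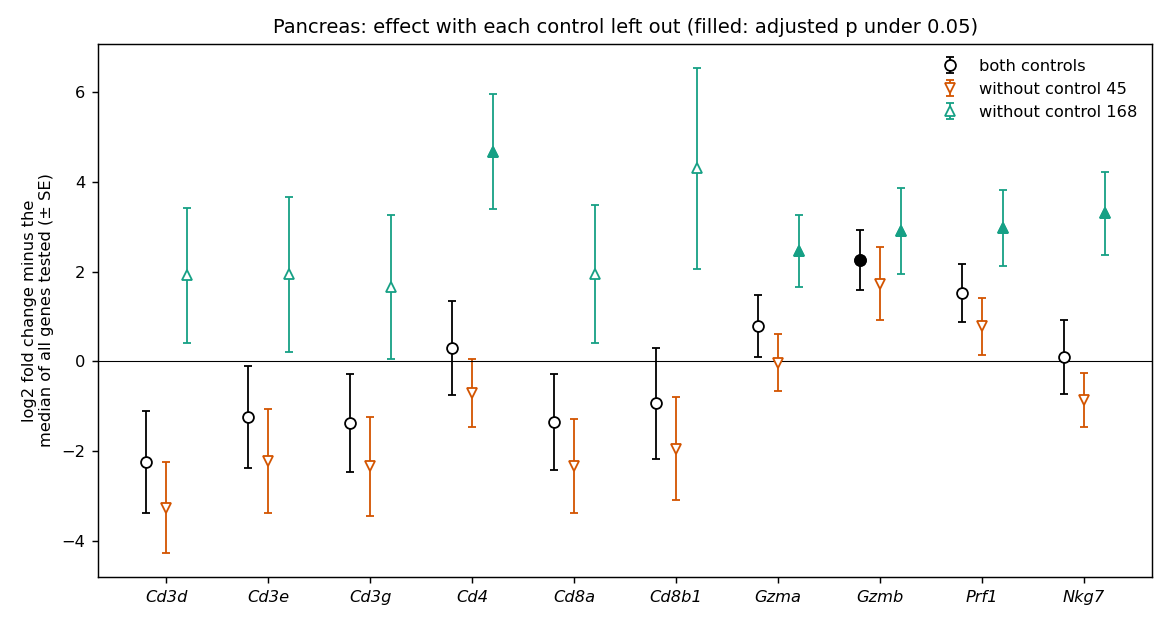
Log2 fold change of each gene in the pancreas (A3B minus control, ± SE) after subtraction of the median over all genes tested, with both controls (circles), without control 45 (triangles down) and without control 168 (triangles up). Filled symbols passed an adjusted p of 0.05 by edgeR. The CD3 and CD8 genes change sign with the control used, and Gzmb and Prf1 do not.

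A ratio of 2 genes within a library does not depend on how libraries are scaled. Relative to Ptprc, which all leukocytes carry, Cd3d was at 0.0848 to 0.483 in A3B pancreases and at 1.03 and 1.05 in controls 45 and 168. Cd3e was at 0.0955 to 0.372 against 0.503 and 0.398, Cd3g at 0.0993 to 0.502 against 1.09 and 0.515, and Cd8a at 0.0413 to 0.187 against 0.344 and 0.212. These 4 members were thus below both controls per unit of Ptprc in all 6 A3B pancreases, where 4.06% of all genes tested were. Cd4 was the member above both controls, at 0.198 to 0.403 against 0.146 and 0.192, where 5.29% of genes were. Macrophages carry Ptprc too, and their transcripts were at 1956 to 5722 TPM summed over 10 genes in A3B pancreases and at 49.7 and 558 TPM in controls 45 and 168, while Ptprc in control 168 lay inside the A3B range. Their part in these ratios was not tested.

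Relative to Cd3g, Gzmb was at 0.261 to 3.13 in A3B pancreases (median 1.34) and at 0.388 and 0.0499 in controls 45 and 168, and Prf1 was at 0.124 to 0.857 (median 0.534) against 0.164 and 0.0332. In A3B pancreas 49, which had the highest CD3 levels, both ratios were the lowest of the A3B group and lay between those of the controls. The 5 other A3B pancreases lay above both controls in both ratios. Nkg7 relative to Cd3g was at 1.09 to 5.37 in A3B pancreases against 0.939 and 0.852, above both controls in all 6, as were 7.15% of all genes tested, and Gzma relative to Cd3g was at 0.883 to 30.3 against 3.72 and 1.19, which overlap. These ratios were formed after the values were seen and are given without a test.

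**Figure D3:**
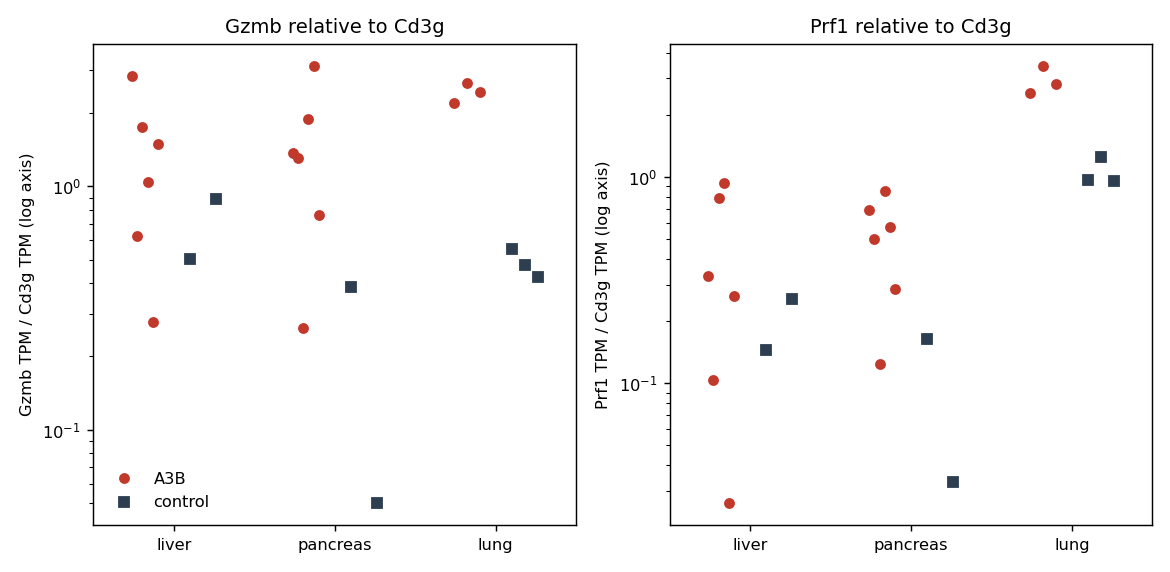
Ratio of Gzmb to Cd3g (left) and of Prf1 to Cd3g (right), in TPM, for each library on a log axis. Red circles are A3B libraries and dark squares controls, for liver and pancreas of set 2 and lung of set 1. In the lung the 3 A3B values of each ratio lie above the 3 control values, and in the pancreas 5 of 6 A3B values lie above both controls.

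Genes of neighbouring lists, written from general knowledge, were counted in the same fit. Their counts in the pancreas stand against 17.0% of all genes tested that were higher and 14.9% that were lower. An unadjusted p under 0.05 was reached by 8312 of 19123 genes. Of 20 genes of T cell receptor signalling 0 were higher and 0 lower in the pancreas by edgeR, with 0 at an unadjusted p under 0.05, and of 10 NK cell genes 0 passed, with 1 at an unadjusted p under 0.05. The T cell receptor constant gene Trbc1 was at 4.33 to 34.2 TPM in A3B pancreases and 0.316 and 26.9 TPM in controls, the same order of controls as for CD3. Of 12 granule and killing genes 2 were higher, namely Ctsc (log2 fold change 1.32, adjusted p = 0.00809 by edgeR), the cathepsin that activates granzymes, and Serpinb9 (1.90, adjusted p = 0.0216), an inhibitor of granzyme B. Of 6 checkpoint genes 2 were higher by edgeR, namely Tox (2.80, adjusted p = 0.000779), a factor of chronically stimulated T cells, and Havcr2 (3.48, adjusted p = 0.0122), the receptor TIM-3. Tox was at 11.2 to 17.3 TPM in A3B pancreases and at 0.236 to 0.611 TPM in controls, whereas control 168 was among the highest libraries for Cd3d (10.8 TPM). Which cells carried Tox was not tested. Among T cell chemokine genes Cxcl16 was higher (2.56, adjusted p = 0.00192), and of 12 T cell subset genes 1 was, Cd44 (2.03, adjusted p = 0.0173). Macrophages express Ctsc, Havcr2, Cxcl16 and Cd44 as well, and 8 of 10 macrophage genes were higher in the same comparison (median log2 fold change 2.89). B and plasma cell genes had 0 of 10 past the threshold, with 14.6 to 1010 TPM summed in A3B pancreases and 11.97 and 466 TPM in controls 45 and 168, so control 168 carried B cell transcripts as well as T cell transcripts.

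In the liver of set 2 no member passed the test. All 10 were tested by edgeR, 0 were called in either direction (0 also by DESeq2) and 0 had an unadjusted p under 0.05. Of the 17365 genes tested 3.66% were called, and 3985 had an unadjusted p under 0.05. The median log2 fold change of the members was 0.42, against 0.21 for all genes. Gzma was at 0.417, 2.80 and 18.1 TPM (lowest, median and highest of 6) in A3B livers and at 1.07 and 1.06 TPM in controls 45 and 168 (log2 fold change 1.77, standard error 1.29, adjusted p = 0.436 by edgeR). The 2 controls were close together, whereas A3B livers 49, 44, 153 and 137 were above them and livers 48 and 125 below. Without liver 49 the log2 fold change of Gzma was 0.56. Livers 44 and 153 also carried acinar transcripts, with Ctrb1, a chymotrypsinogen, at 152 and 371 TPM against at most 0.651 TPM in the other A3B livers and 18.8 and 0 TPM in controls 45 and 168, and the part of these in the levels of Gzma and Gzmb was not tested. Gzmb was at 0.194, 1.05 and 2.58 TPM against 0.495 and 0.589 TPM (log2 fold change 0.62, standard error 0.89), and Prf1 at 0.0336, 0.236 and 0.766 TPM against 0.143 and 0.171 TPM (0.28, standard error 0.94), with adjusted p of 0.718 and 0.887. Nkg7 was at 0.440, 1.57 and 2.95 TPM against 1.33 and 1.14 TPM (-0.17, standard error 0.63, adjusted p = 0.896).

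T cell receptor and coreceptor genes were low in livers, with counts from 0 to 280 per library. Cd3d was at 0.541, 0.793 and 2.12 TPM in A3B livers and at 0.721 and 0.501 TPM in controls 45 and 168, Cd3g at 0.186, 0.936 and 1.28 TPM against 0.983 and 0.666 TPM, and Cd4 at 0.300, 0.890 and 1.70 TPM against 0.536 and 1.24 TPM. The groups overlapped for all 3, and the log2 fold changes were 0.56, -0.18 and -0.44 (standard errors 0.70, 0.67 and 0.74). Cd3e was at 0.315, 1.41 and 3.82 TPM against 1.02 and 0.398 TPM (log2 fold change 1.03, standard error 0.96), and the share of its counts on protein-coding transcripts was 46.4% to 70.4% in A3B livers and 73.5% and 95.3% in the controls. Cd8b1 was at 0, 0.0923 and 0.241 TPM against 0.105 and 0.235 TPM (-1.29, standard error 1.02). In A3B liver 137 the count of Cd8b1 was 0, which allows up to 3 counts. Cd8a was the member above both controls on the TPM scale in all 6 A3B livers, at 0.196, 0.346 and 1.11 TPM against 0.104 and 0.152 TPM, as were 24.3% of all genes tested. After TMM scaling its groups overlapped, with A3B liver 153 at 0.405 CPM and control 168 at 0.410 CPM. Its log2 fold change was 1.51 (standard error 0.88, adjusted p = 0.335 by edgeR), and 0.71 without liver 48. Liver 48 held the highest Cd3e, Cd3g and Cd8a of the group together with the lowest Ptprc, 0.646 TPM, and the lowest macrophage sum, 49.1 TPM against 410 to 1255 TPM in the other A3B livers. In that library 62.8% of the Cd3e counts and 16.3% of the Nkg7 counts lay on protein-coding transcripts. Among the T cell, NK cell, granule, checkpoint and chemokine lists, 0 genes passed by edgeR in the liver, while an unadjusted p under 0.05 was reached by 3 of 20 genes of T cell receptor signalling, 0 of 10 of T cell subsets, 1 of 10 of NK cells, 1 of 8 of granule and killing, 0 of 5 checkpoint genes and 3 of 9 T cell chemokine genes. Over all genes, 3985 of the 17365 tested reached it.

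In the lung, Gzmb again was the member that passed the test, and it was higher in A3B mice, whereas Cd3d and Cd3g lay below all controls in all 3 A3B lungs, as did 30.6% of all genes tested, and did not pass it. Values of set 1 are TPM with no counts, so their depth is unknown, and limma was run on log2(TPM + 1). All 10 members were tested, 1 was higher and 0 were lower, with 2 (Gzmb and Cd3g) at an unadjusted p under 0.05. Of the 13651 genes tested 16.1% were higher and 20.8% lower, and 6659 had an unadjusted p under 0.05. Gzmb was at 32.9, 56.0 and 49.6 TPM in A3B lungs 69, 70 and 74, a mean of 46.1 ± 11.9 TPM (SD, n = 3), and at 12.6, 15.1 and 24.8 TPM in controls 87, 88 and 91, a mean of 17.5 ± 6.46 TPM (SD, n = 3). All 3 A3B lungs were above all 3 controls, and the log2 fold change was 1.37 (standard error 0.29, adjusted p = 0.0146 by limma). It stayed past the threshold without any one lung, at 1.18 to 1.64. Prf1 was at 38.0, 72.6 and 57.3 TPM against 21.8, 39.4 and 55.4 TPM, which overlap (log2 fold change 0.56, standard error 0.38, adjusted p = 0.289). Gzma was at 37.4, 62.7 and 77.0 TPM against 44.1, 50.3 and 103 TPM (-0.11, standard error 0.40, adjusted p = 0.845), and Nkg7 at 8.24, 13.5 and 13.5 TPM against 7.27, 10.7 and 18.6 TPM (0.01, standard error 0.34, adjusted p = 0.984).

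Cd3g was at 14.9, 21.0 and 20.3 TPM in A3B lungs 69, 70 and 74 and at 22.7, 31.7 and 58.2 TPM in controls 87, 88 and 91 (log2 fold change -0.87, standard error 0.34, unadjusted p = 0.0406, adjusted p = 0.0874 by limma). Cd3d was at 1.248, 1.66 and 1.59 TPM against 1.89, 2.06 and 5.36 TPM (-0.62, standard error 0.30, adjusted p = 0.151). For both genes the groups did not overlap. The reverse order, with A3B above as for Gzmb, was found for 23.3% of all genes tested. Cd8b1 was at 4.21, 7.94 and 4.31 TPM against 5.86, 11.1 and 22.9 TPM (-1.003, standard error 0.48, adjusted p = 0.151), and Cd8a at 0.519, 0.894 and 0.584 TPM against 0.707, 1.19 and 2.46 TPM (-0.50, standard error 0.26, adjusted p = 0.168). Control lung 91 held the highest value of every member except Cd4, Gzmb and Prf1, and without it the log2 fold change of Cd8b1 was -0.54 and that of Cd3g -0.51. Without control 87, Cd3g (-1.17) and Cd8b1 (-1.44) passed the threshold. Cd3e was at 15.7, 22.9 and 13.8 TPM against 12.5, 20.4 and 28.0 TPM (-0.17, standard error 0.31), and Cd4 at 7.47, 13.2 and 8.76 TPM against 5.52, 9.75 and 12.5 TPM (0.10, standard error 0.31), with adjusted p of 0.699 and 0.816.

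Relative to Ptprc, Gzmb was at 0.0706 to 0.0987 in A3B lungs and 0.0258 to 0.0358 in controls, and Prf1 at 0.0815 to 0.128 against 0.0465 to 0.0799. These 2 members were above all controls, as were 9.44% of genes, and Cd3d and Cd3g were below them, as were 11.4%. Relative to Cd3g, Gzmb was at 2.21, 2.66 and 2.45 in A3B lungs 69, 70 and 74 and at 0.554, 0.476 and 0.425 in controls 87, 88 and 91, and Prf1 was at 2.55, 3.45 and 2.83 against 0.963, 1.245 and 0.951. The same held for Gzma relative to Cd3g (2.51 to 3.80 against 1.59 to 1.95) and Nkg7 relative to Cd3g (0.553 to 0.666 against 0.320 to 0.338). All 4 cytotoxic genes were thus above all controls per unit of Cd3g, as were 47.6% of all genes tested, so that this is not particular to them. The ratio of Cd4 to Cd8b1 was 1.66 to 2.04 in A3B lungs and 0.545 to 0.942 in controls. The levels of both genes overlapped between the groups, and neither gene passed the test. The share of all genes that separated relative to Cd8b1 was not counted, so this ratio is not shown to be particular to Cd4. B cell transcripts summed over 7 genes were at 146 to 517 TPM in controls and at 99.6 to 186 TPM in A3B lungs, which overlap, and Glycam1 was at 89.4 TPM in A3B lung 70. Their part in the ratios was not tested.

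**Figure D4:**
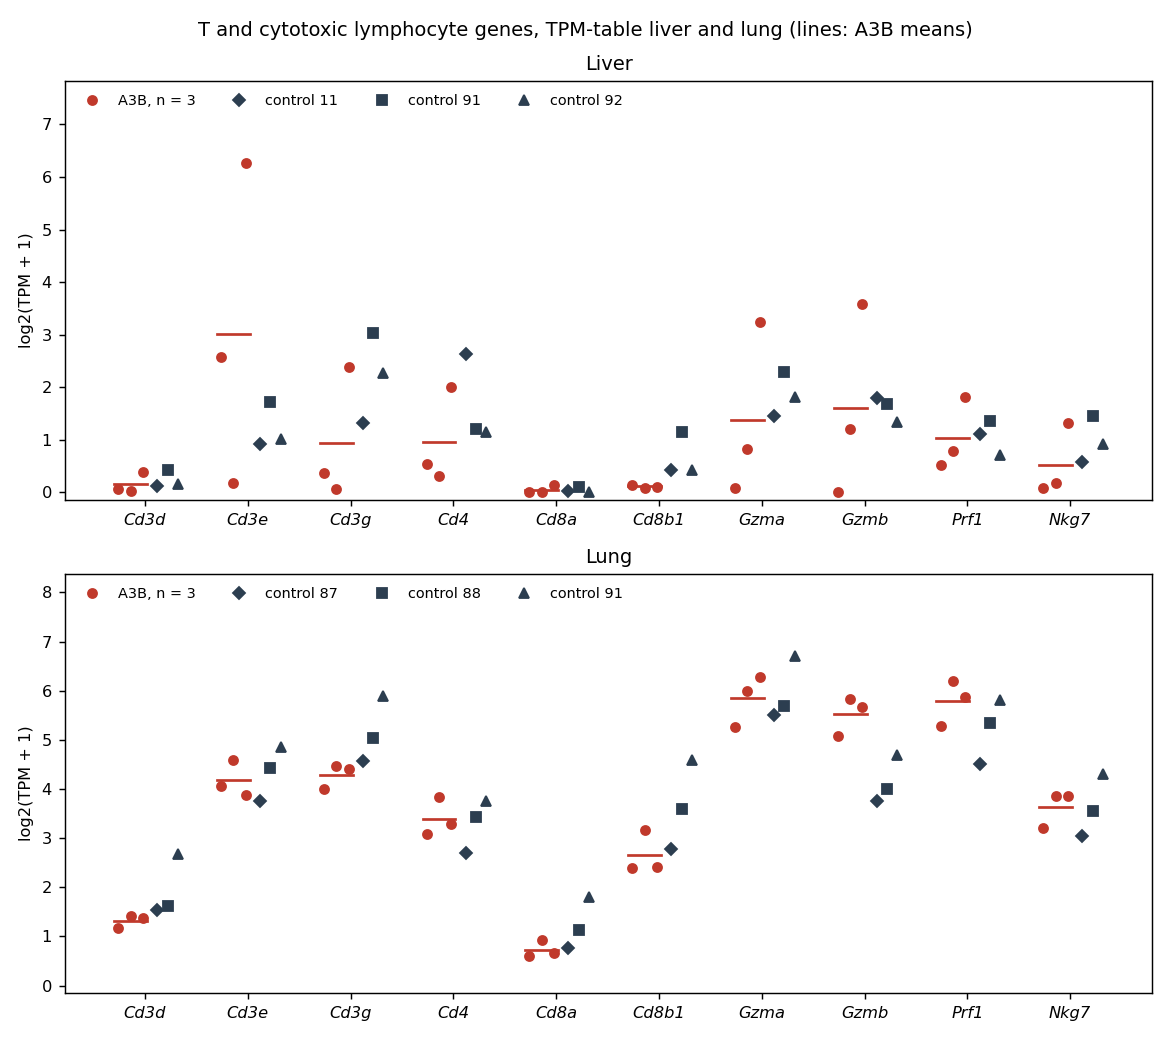
Level of each gene in each library of set 1, as log2(TPM + 1), in liver (top) and lung (bottom). Red circles are the 3 A3B libraries with their mean as a line, and dark symbols the 3 controls. In the lung Gzmb is above all controls and Cd3d and Cd3g are below them. In the liver 1 A3B library reaches 75.7 TPM for Cd3e.

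The list counts in the lung stand against 16.1% of all genes tested that were higher and 20.8% that were lower. Of the neighbouring lists in the lung, NK cell genes had 1 of 9 tested higher, Il2rb, a receptor chain for IL-2 and IL-15 (106 to 136 TPM in A3B lungs against 28.2 to 55.1 TPM, log2 fold change 1.51, adjusted p = 0.00650 by limma). Fasl, the ligand of the death receptor Fas, was higher among 9 granule and killing genes (0.91, adjusted p = 0.0190), and Havcr2 among 3 checkpoint genes tested (0.48, adjusted p = 0.0141). T cell subset genes had 3 of 11 higher and 1 lower, among them Ctla4 (1.65, adjusted p = 0.00336) and Foxp3 (0.67, adjusted p = 0.0134), markers of regulatory T cells, and Gata3, a factor of type 2 helper cells, which fell by 1.35 on the log2 scale (adjusted p = 0.00432). Among genes of T cell receptor signalling Cd2, an adhesion molecule of T and NK cells, was lower (-0.60, adjusted p = 0.0217). Of 5 T cell chemokine genes tested none passed by limma, with Ccl4 nearest (-1.09, unadjusted p = 0.0389).

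In the liver of set 1 no member passed, and 4 members (Cd3d, Cd8a, Cd8b1 and Nkg7) had a mean under 1 TPM and were not tested. Of the 6 tested by limma, 0 were called and 0 had an unadjusted p under 0.05. Of the 11507 genes tested 7.93% were called, and 3755 had an unadjusted p under 0.05. Gzmb was listed at 0 in A3B liver 23 and was at 1.31 and 11.1 TPM in A3B livers 28 and 70, against 2.49, 2.19 and 1.52 TPM in controls 11, 91 and 92. Gzma was at 0.0552, 0.766 and 8.46 TPM against 1.73, 3.91 and 2.503 TPM, and Prf1 at 0.436, 0.725 and 2.52 TPM against 1.16, 1.55 and 0.627 TPM. For all 3 genes liver 70 was above every control and liver 23 below every control. Cd3e was at 4.95, 0.134 and 75.7 TPM against 0.882, 2.27 and 1.01 TPM (log2 fold change 1.80, standard error 1.33, adjusted p = 0.372 by limma). The other CD3 genes did not share the level of Cd3e in liver 70, where Cd3d was at 0.306 TPM and Cd3g at 4.22 TPM, and without liver 70 the log2 fold change of Cd3e was 0.17. Cd3g was at 0.284, 0.0509 and 4.22 TPM against 1.504, 7.16 and 3.82 TPM (-1.27, standard error 0.69), and Cd4 at 0.455, 0.244 and 3.01 TPM against 5.19, 1.30 and 1.22 TPM (-0.71, standard error 0.58), with adjusted p of 0.239 and 0.419. Of the members not tested, Nkg7 was at 0.0614 to 1.49 TPM against 0.496 to 1.74 TPM, Cd3d at 0.0203 to 0.306 against 0.0888 to 0.338 TPM, Cd8a at 0.00284 to 0.1001 against 0.0107 to 0.0790 TPM and Cd8b1 at 0.0616 to 0.103 against 0.337 to 1.23 TPM. Of the T cell, NK cell, granule, checkpoint and chemokine lists, Tox was the gene that passed in this liver (log2 fold change 1.59, adjusted p = 0.0436).

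**Figure D5:**
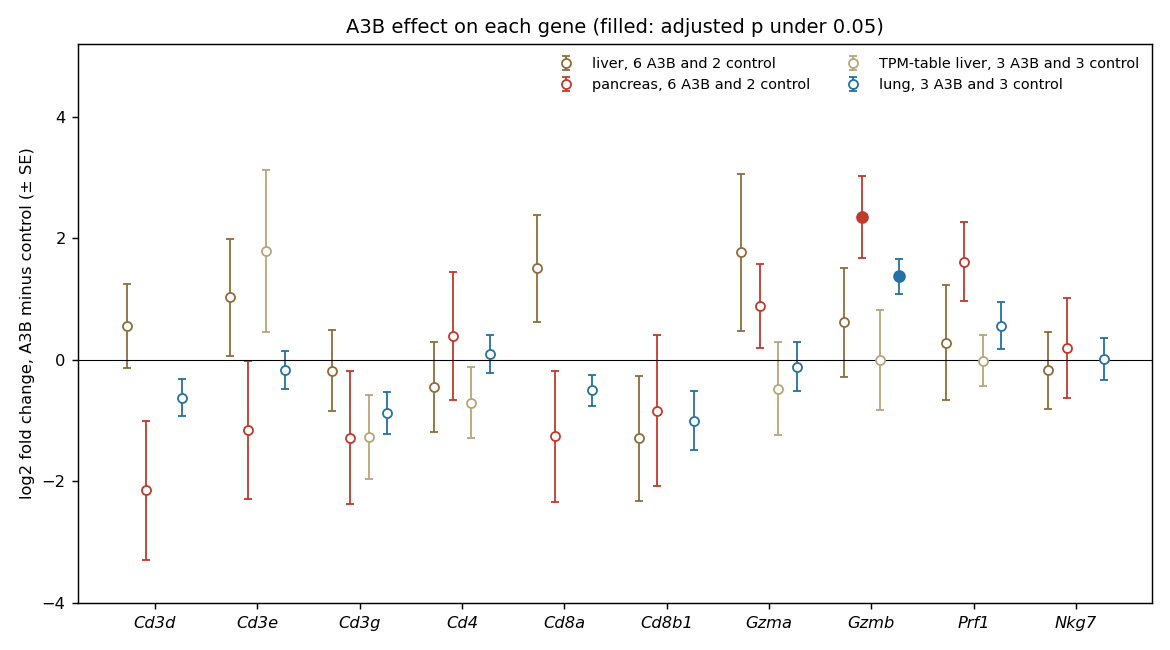
Log2 fold change of each gene (A3B minus control, ± SE) in liver and pancreas of set 2 (edgeR) and in liver and lung of set 1 (limma on log2(TPM + 1)). Filled circles passed an adjusted p of 0.05, and members under 1 TPM on average in the liver of set 1 have no point there. Gzmb is filled in pancreas (2.36) and lung (1.37), and the standard errors of the CD3 genes in the pancreas reach 1.14.

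Whether the effect on a member differed between tissues was tested as an interaction. For pancreas minus liver in set 2, 0 of 10 members were called by edgeR (0 also by DESeq2), none with an unadjusted p under 0.05. Of 19908 genes 11.9% were called in either direction, and 5743 had an unadjusted p under 0.05. The difference for Gzmb was 1.92 (standard error 1.12, adjusted p = 0.270) and that for Prf1 1.51 (standard error 1.17, adjusted p = 0.417). For Cd8a it was -2.61 (standard error 1.52, adjusted p = 0.268) and for Cd3d -2.55 (1.48, adjusted p = 0.266). For lung minus liver in set 1, 0 of 9 members tested were called by limma, none with an unadjusted p under 0.05. Of 13477 genes 10.7% were called, and 4026 had an unadjusted p under 0.05. The difference for Gzmb was 1.38 (standard error 0.99, adjusted p = 0.364 by limma). Gzmb therefore passed in pancreas and lung and not in either liver, without a difference between tissues that passed the test. In levels, all 6 lungs of set 1 lay above all 6 livers for every member except Cd3e, for which liver 70 was the highest library. In the 5 A3B mice with both tissues, the pancreas held more TPM than the liver of the same mouse in 5 of 5 for Cd3g, Cd4, Cd8a, Cd8b1, Prf1 and Nkg7, in 4 of 5 for Cd3d, Cd3e and Gzma and in 3 of 5 for Gzmb.

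Members varied together more in the pancreas than in the liver. Over the 8 pancreases, which share the gap between control 45 and the rest, the correlation of log2(TPM + 1) was highest for Cd3e with Cd8a (r = 0.99) and Cd3g with Cd8b1 (r = 0.99) and lowest for Cd8a with Gzma (r = 0.21) and Cd3d with Gzmb (r = 0.23). Over the 8 livers Gzma and Prf1 were the closest (r = 0.96), and Cd3d and Cd3g ran against each other (r = -0.56) at counts of 13 to 187. The genes most like the mean of the 10 members, by Pearson correlation over 8 pancreases among the 13581 genes that averaged 1 TPM or more, were Dusp2, Skap1, Rhoh, Samsn1 and S1pr4 (r = 0.99). In the 8 livers, among 12307 genes, they were Nupr1 (r = 0.97), Mx1 (r = 0.97), Med19, Ahnak and Phlda2 (r = 0.96). The 5 genes of the pancreas and those of the liver did not overlap.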

How the data were processed

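RNA-seq libraries (TruSeq Stranded) of 28 mouse samples were used. For set 2 the authors quantified mm10 transcripts with kallisto, and their deposited files give each transcript as estimated counts and as TPM. Here 116640 of 119414 transcripts were matched to GENCODE M21, values were summed per gene, and counts were rounded. For set 1 the authors deposited TPM per gene from counts of deduplicated alignments, and 4 of its 24849 rows with repeated names were left out. All columns were mapped to samples.

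A3B and control libraries of a tissue were compared with edgeR 4.0.16 (filterByExpr, TMM, robust quasi-likelihood F test) in set 2 and with limma 3.58.1 (trend, robust, log2(TPM + 1), mean of at least 1 TPM) in set 1. P-values were adjusted by Benjamini-Hochberg over all genes tested, with a threshold of 0.05. DESeq2 1.42.0 was an alternative, and scripts were tested on simulated data. Other alternatives were total-count scaling, no filter, limma on TPM, a Y-chromosome term, a pseudocount of 0.1, the replicate block and leaving out libraries. Liver and pancreas of one animal pair the samples of the interaction: deviations from group means correlated at -0.0048 to 0.28 in the 5 A3B mice with both. Members and lists were chosen with earlier results of these data known. The text names all members, up to 3 genes with the smallest p per list, and the 5 genes most like the members. Lists of dendritic cell, neutrophil, mast cell, lymph node stroma, pan-leukocyte, hepatocyte and lung epithelium genes served as checks of the tissue. Results on some list genes are not reported here. Software was R 4.3.3, and the promoters came from RefSeq tables of GRCm38.p6.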

Additional observations from a re-analysis of the deposited data

Results flagged for a closer look

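In 20 groups of 6 A3B libraries (10 genes in liver and in pancreas of set 2), the highest library was set against its nearest neighbour, as the gap over the range of the group, by the 95% critical value of Dixon's test, which chance exceeds in about 1 of 20 groups. On the TPM scale 9 groups passed it, and on log2(TPM + 1) 5 did. A3B pancreas 49 was the library in 7 of the 9. Its Cd3e was at 12.7 TPM (gap over range 0.863 on TPM and 0.684 on the log scale), Cd3g at 17.1 TPM (0.873 and 0.672), Cd8a at 6.35 TPM (0.884 and 0.756) and Cd8b1 at 7.12 TPM (0.844 and 0.671). Its Cd3d at 16.4 TPM (0.797), Cd4 at 13.7 TPM (0.674) and Nkg7 at 18.6 TPM (0.638) passed on TPM alone. In the same library lymph node stroma genes summed to 407 TPM, against 38.5 to 104 TPM in the other A3B pancreases, and their part in these values was not tested. In livers, Cd8a in A3B liver 48, the library with the lowest Ptprc of the livers of set 2, was at 1.11 TPM (0.778 on TPM and 0.724 on the log scale), and Gzma in A3B liver 49 was at 18.1 TPM (0.756 on TPM alone).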

How the results depend on the processing

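Gzmb in the lung stayed past the threshold under every alternative run. Gzmb in the pancreas lost it without control 45 and without A3B pancreases 44 and 137 together. In the pancreas 1 of 10 members was called higher by edgeR, where 3250 of 19123 genes were. DESeq2 called 2, where 3693 genes were higher, and total-count scaling 3, where 13473 were. Limma on log2(TPM + 1) called 4 of 9 members tested, where 11401 of 13590 genes were higher. Without pancreases 44 and 137, where 2254 of 18916 genes were higher, 0 members were called. Without 1 library the count ran from 0 to 5 in the pancreas, 0 to 0 in the liver of set 2, 1 to 3 in the lung, 0 to 2 for pancreas minus liver (Cd4 and Nkg7, without control pancreas 168) and 0 to 1 for lung minus liver (Gzmb, without A3B liver 70). Groups held few libraries, and control pancreas 45 held 1 to 27 counts per member, so effects on members may have been missed. The smallest effect that could be detected was not tested. Where a value below changed, the cause was not tested.

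Over all genes, the calls in the liver of set 2 were 636, with 2396 by DESeq2 and 1120 by total-count scaling. In the pancreas they were 6093, with 13683 by total-count scaling and 11553 by limma. For pancreas minus liver they were 2368, with 3762 by DESeq2, 8068 by total-count scaling and 7829 by limma. In the liver of set 1 they were 913, and 54 with no filter. Without 1 library they ran from 73 (without control 168) to 1599 (without A3B 49) in the liver of set 2, 3829 to 5820 in the pancreas, 545 to 3405 for pancreas minus liver, 1 (without control 91) to 1562 in the liver of set 1, 2998 to 4579 in the lung and 571 to 3072 for lung minus liver.

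With the mouse number as a replicate block, 0 members were called for pancreas minus liver and for lung minus liver, and it changed no call of a member. Over all genes the calls went from 2368 to 1606 and from 1448 to 2607. The difference for Gzmb was 2.05 and 0.77, and that for Gzma turned sign to 0.050 and -0.21.

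Total-count scaling, which moved the median of all genes as given above, turned the sign of Cd3g (0.27), Cd4 (0.10) and Nkg7 (0.33) in the liver, of Cd3e (0.79), Cd3g (0.67), Cd8a (0.67) and Cd8b1 (1.08) in the pancreas, and of Cd3g (0.40) and Gzma (0.39) for pancreas minus liver. Limma on TPM turned that of Nkg7 (0.18) in the liver, of Cd3d (0.15), Cd3e (0.51), Cd3g (0.51), Cd8a (0.24) and Cd8b1 (0.44) in the pancreas, and of Cd3e (0.0099), Cd3g (0.50) and Gzma (1.80) for pancreas minus liver. Without A3B pancreas 49 and control 168 (a fit chosen after seeing the data), Cd3d (1.42), Cd3e (1.21), Cd3g (0.94), Cd8a (1.34) and Cd8b1 (3.64) were positive. A pseudocount of 0.1 turned Cd8b1 for lung minus liver (0.71).

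Leaving out 1 library also turned the sign of these log2 fold changes. In the liver of set 2, Cd4 ran from -0.92 to 0.0024 and Prf1 from -0.43 to 0.48. In the pancreas, Cd3d ran from -3.09 to 2.24, Cd3e from -2.20 to 2.26, Cd3g from -2.31 to 1.97, Cd4 from -0.54 to 4.99, Cd8a from -2.18 to 2.26, Cd8b1 from -1.82 to 4.62 and Nkg7 from -0.70 to 3.62. For pancreas minus liver, Cd3d ran from -3.50 to 1.88, Cd3e from -3.08 to 1.42, Cd3g from -1.97 to 2.36, Cd8a from -3.53 to 0.96, Cd8b1 from -0.36 to 6.11, Gzma from -1.48 to 1.21 and Nkg7 from -0.37 to 3.99. In the liver of set 1, Gzma ran from -1.40 to 0.18, Gzmb from -0.998 to 0.80 and Prf1 from -0.19 to 0.25. In the lung, Cd3e ran from -0.46 to 0.088, Cd4 from -0.19 to 0.33, Gzma from -0.35 to 0.26 and Nkg7 from -0.28 to 0.34. For lung minus liver, Cd3g ran from -0.040 to 1.12, Cd8b1 from -0.88 to 0.018 and Gzma from -0.29 to 1.29.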

Other observations

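Part of the reads assigned to Cd3e lay on transcripts with a retained intron, since 33.9% to 84.0% of its estimated counts were on protein-coding transcripts in pancreases, and 46.4% to 70.4% in A3B livers against 73.5% and 95.3% in control livers. For Gzma, Gzmb, Prf1 and Cd8b1 the protein-coding share was 100%. In the TPM table Cd3d was at 1.248 to 5.36 TPM in lungs and Cd3g at 14.9 to 58.2 TPM, whereas in the A3B pancreases of set 2 they were at 0.931 to 16.4 and 0.858 to 17.1 TPM, so the order of genes should not be carried from one data set to the other.

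Over all genes tested 17.0% were higher and 14.9% lower in the pancreas, and 16.1% and 20.8% in the lung. Among genes of other cell types in the pancreas, edgeR called 2 of 8 pan-leukocyte genes higher (Laptm5 and Itgb2), 1 of 8 neutrophil genes higher and 1 lower, 1 of 5 mast cell genes lower (Cpa3) and 1 of 6 lung epithelium genes lower. Of 8 dendritic cell genes, 7 lymph node stroma genes and 6 hepatocyte genes 0 passed, with 1, 1 and 0 at an unadjusted p under 0.05. In the lung, limma called 1 of 7 dendritic cell genes higher (Zbtb46), 1 of 7 neutrophil genes higher (Ngp), 2 of 4 lymph node stroma genes lower (Cr2 and Pdpn) and 1 of 6 lung epithelium genes lower (Sftpc). Of 8 pan-leukocyte genes, 5 mast cell genes and 6 B and plasma cell genes 0 passed there, with 3, 1 and 1 at an unadjusted p under 0.05. Of 10 acinar genes edgeR called 1 lower in the liver of set 2, Cela1 (4.88 to 19.9 TPM in A3B livers and 64.0 to 78.0 TPM in controls, log2 fold change -2.68, adjusted p = 0.0261).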
